A study of Mus musculus with 868 samples.

Results

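Skin was compared with 23 other mouse tissues, in 4 skin libraries out of the 868 libraries of a survey of 24 tissues and 18 treatment groups. The members were chosen by their labels: the 2 libraries of untreated mice and the 2 of mice given 5% sucrose in the skin count table, set against the 92 libraries of the same 2 groups in the other tissues and joined by gene symbol. The mice were C57BL/6N, a common inbred laboratory strain, and the labels give no age, sex, skin site, hair cycle stage or statement on whether tissue was pooled. RNA was taken from whole frozen tissue, and the libraries count the 3′ ends of polyadenylated transcripts, so a count does not grow with transcript length. The 2 treatments are called Untreated and Sucrose below. Another control group, called CMCTween, received 0.5% carboxymethylcellulose with 0.25% Tween80, and its 48 libraries, 2 per tissue, served as the same measure in other mice. Nothing in the labels says that replicates came from separate animals, so p-values measure the spread between these libraries, which may in part be technical.

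Skin is a layered organ. Its surface epithelium, the epidermis, renews from a basal layer of keratinocytes that hold to the basement membrane, and daughter cells move outward, change their keratins, and die as flat corneocytes wrapped in a cross-linked protein envelope and embedded in lipid. Hair follicles and their sebaceous glands grow down from the epidermis into the dermis, a collagen-rich connective tissue, beneath which mouse skin carries fat and a thin sheet of striated muscle. The forestomach of the mouse is also lined by a cornifying squamous epithelium.

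The Untreated skin libraries held 12811780 and 4963614 counts (replicates 2 and 4) and the Sucrose skin libraries 1118071 and 1117747 (replicates 1 and 2). In the other tissues the totals ran from 2875950 to 9868596 in the 46 Untreated libraries and from 808904 to 2472639 in the 46 Sucrose libraries. Values below are CPM, each library's counts divided by its size and put on a common scale, with sizes scaled by the trimmed mean of M-values (TMM). The defining genes of epidermis were present in all 4 skin libraries: the basal keratin Krt14 stood at 694, 652, 989 and 1011 CPM and the suprabasal keratin Krt10 at 5105, 4499, 7752 and 9633 CPM in Untreated 2, Untreated 4, Sucrose 1 and Sucrose 2, the order used throughout. Krt2, another suprabasal keratin, had 13 counts over the 4 libraries together. The 4 adult hemoglobin genes were listed at 0 in all 96 libraries, bone marrow included, so they say nothing about blood here. In bulk tissue, fewer cells of a type and less RNA per cell cannot be told apart.

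Of 17495 genes tested, 4844 (27.7%) were higher in skin than in the mean of the other 23 tissues and 3417 (19.5%) were lower, by edgeR's quasi-likelihood test with a Benjamini-Hochberg adjusted p under 0.05. Without Untreated replicate 2 of skin the lower count was 2211. A stricter question was which genes exceeded each of the 23 tissues. By that rule, with the largest of the 23 p-values adjusted over all genes, 208 genes (1.19% of those tested) were highest in skin. In 192 of the 208, all 4 skin libraries lay above all 92 others, a separation found in 238 genes (1.36%) of all those tested. The level in skin exceeded that of the next tissue by more than 2 times in 173 of the 208, more than 4 times in 92 and more than 8 times in 55.

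Stomach was the tissue nearest to skin on both measures taken. The pairwise comparison with stomach called 7345 genes, 3898 (22.3%) higher in skin and 3447 (19.7%) lower, and the rank correlation of mean log2 CPM across genes was 0.887. The other tissues ranked differently on the 2 measures. By number of genes, pancreas (7379) and lung (7590) were close to stomach, and liver (10541) and testis (13343) were farthest. The pancreas libraries had the lowest TMM factors, 0.174 to 0.248, and so small scaled sizes. How far this limits the number of calls for pancreas was not tested. By rank correlation, thyroid gland (0.868) and aorta (0.860) came after stomach, pancreas stood at 0.809, and brain (0.698) and testis (0.413) were lowest. Stomach was also the next highest tissue for 61 of the 208 genes highest in skin (29.3%), although it was the next highest for 2.40% of all genes tested. Pancreas came next for 30 of the 208, and 3 counts over the pancreas libraries amounted to 1.54 CPM, the highest such floor of the 24 tissues.

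**Figure D1:**
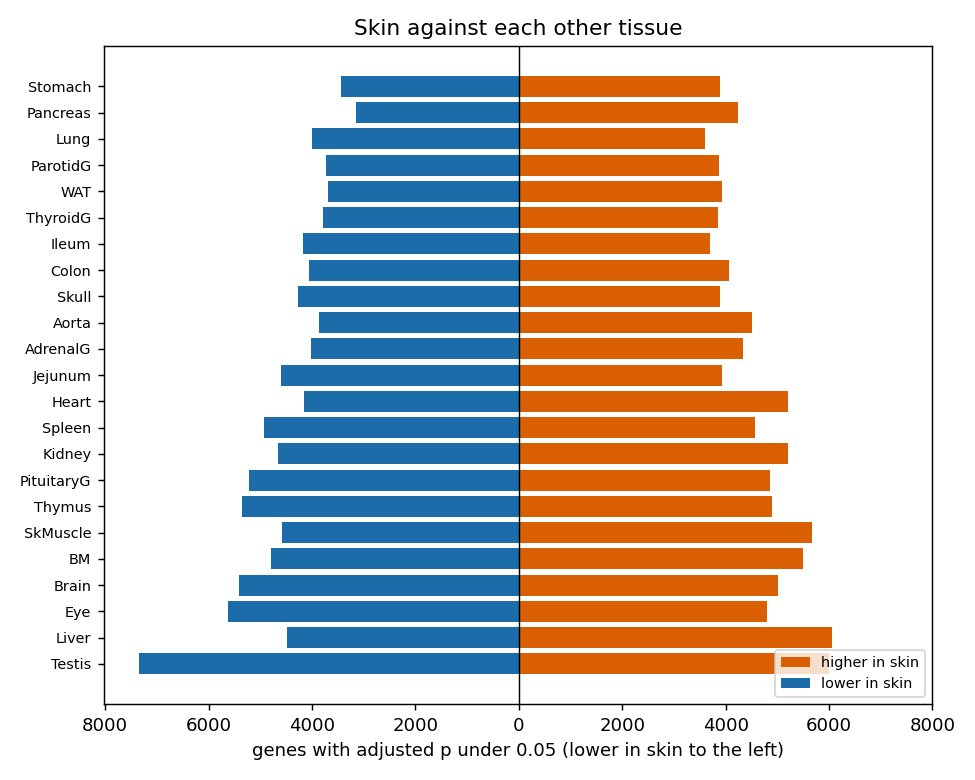
Number of genes with an adjusted p under 0.05 (horizontal axis) between skin and each of the 23 other tissues (vertical axis), higher in skin to the right and lower in skin to the left. Stomach has the shortest total bar, 7345 genes, and testis the longest, 13343.

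The genes described next were named for the largest ratio of their level in skin to that in the next tissue, or for their level. All 30 were called by edgeR, but 17 of them, Defb8, Rnase2b, Cyp2b19, Awat1, Serpinb6d, Serpina3b, Serpina3j, Oas1f, Krt77, Ces4a, Serpinb6c, Serpinb6e, Krt24, Krtap3-2, Calm4, Lce1m and Klk7, were not called against the nearest tissue with DESeq2. With Untreated libraries only, Serpinb6e, Calm4, Sfn and S100a4 were not called. Defb6, a beta-defensin, a secreted antimicrobial peptide, stood at 199.8, 195.9, 351 and 235.9 CPM in skin and at 0.771 to 2.27 CPM in thymus, the next tissue, a ratio of 140.7. All skin libraries were far above the highest of the 92 others, at 7.70 CPM. Its paralog Defb8 stood at 185.9, 102.6, 17.8 and 78.6 CPM with 1 count in pancreas, the lowest library being Sucrose 1. The ratio of mean CPM for Defb8, with pancreas set at the level of 3 counts, was 62.5. The pooled ratio, of counts summed over libraries and scaled by library size, was 290.8. Its 95% conditional binomial interval of 52.2 to 11490 covers counting error only. Pooled ratios given below have no such floor and are higher than the ratios of mean CPM used for ranking. The latter were 61.9 for Rnase2b, 47.5 for Awat1, 39.2 for Serpina3b, 33.9 for Krtap3-2 and 29.7 for Krt77. Defb6 (chr8:19225478-19228209, mm10) and Defb8 (chr8:19445769-19447606) lie close together on chromosome 8. Whether the 2 genes share reads was not tested, and how shared reads were counted is not given in the sources used here. The split between them may therefore be uncertain.

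Flg2, a filaggrin-type protein of the outer epidermis, stood at 698, 671, 933.5 and 1220 CPM, and the next tissue, pancreas, ranged from 0 to 26.9 CPM. Its mean was 88.0 times that of pancreas, and the highest of the 92 other libraries was at 26.9 CPM. Krt79, a keratin of the upper follicle and the sebaceous duct, stood at 1071, 1039, 1408 and 1247 CPM against 21.1 to 26.4 CPM in lung, a ratio of 49.2. Krt77, a suprabasal keratin, stood at 44.9, 43.4, 42.6 and 52.2 CPM and had 1 count in pancreas (pooled ratio 87.3, interval 15.6 to 3453). Krt24 stood at 26.8, 30.0, 37.6 and 30.7 CPM, 19.2 times its mean in skull, where it ranged from 0 to 3.56 CPM. Anxa8, an annexin, a calcium-dependent membrane-binding protein, stood at 505.5, 486.5, 630.9 and 679.8 CPM, 37.0 times its level in eye.

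Among the same genes were several enzymes. Scd3, a fatty acid desaturase of the sebaceous gland, stood at 639.3, 687.2, 797.1 and 671.3 CPM and at 10.01 to 20.7 CPM in brain, a ratio of 44.6. Dgat2l6, an acyltransferase of the same family as the wax synthases, stood at 119.1, 104.8, 118.6 and 139.4 CPM against 1.58 to 2.53 CPM in skeletal muscle (62.3 times). The 4 skin libraries of these 2 genes lay within a narrow range of each other. Awat1, a wax synthase, stood at 56.5, 56.1, 81.0 and 98.65 CPM with 1 count in pancreas (pooled ratio 117.5, interval 21.1 to 4645). In mean CPM, Ces4a, a carboxylesterase, was at least 28.6-fold higher in skin than in pancreas, and Cyp2b19, a keratinocyte cytochrome P450 that acts on arachidonic acid, at least 57.1-fold, both bounds taken against 3 counts over the pancreas libraries, which had none. The smallest fitted log2 difference of Ces4a over the 23 tissues was 4.62. Rnase2b, a ribonuclease of the eosinophil-associated family, stood at 105.7, 96.1, 93.1 and 86.5 CPM with 2 counts in pancreas (pooled ratio 98.9, interval 27.3 to 816.8). Oas1f, of the oligoadenylate synthetase family, stood at 38.4, 38.7, 76.7 and 59.3 CPM, at least 34.6-fold above pancreas, which had no count.

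Serine protease inhibitors (serpins) were also among them. Of 18 Serpinb genes tested, 7 were highest in skin (38.9%, against 1.19% of all genes), and 3 of 23 Serpina genes were. Serpinb6d stood at 114.9, 86.6, 13.5 and 52.9 CPM and Serpinb6e at 6.54, 13.2, 77.4 and 35.0 CPM, so the library lowest in the first of these chromosome 13 genes was the highest in the other. Serpinb6c stood at 39.99, 41.4, 25.6 and 42.2 CPM. Relative to 3 counts in pancreas the 3 genes were at least 43.5, 21.5 and 24.2 times higher in skin. Serpina3j stood at 38.0, 41.7, 137.1 and 92.2 CPM, 38.7 times its level in thyroid gland. Of the same family on chromosome 12, Serpina3b had 2 counts in pancreas (pooled ratio 52.0, interval 14.4 to 429.9) and Serpina3h had none (at least 24.7-fold higher in skin). Members of these families are close in sequence, and how reads shared between them were counted is not given in the sources used here.

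**Figure D2:**
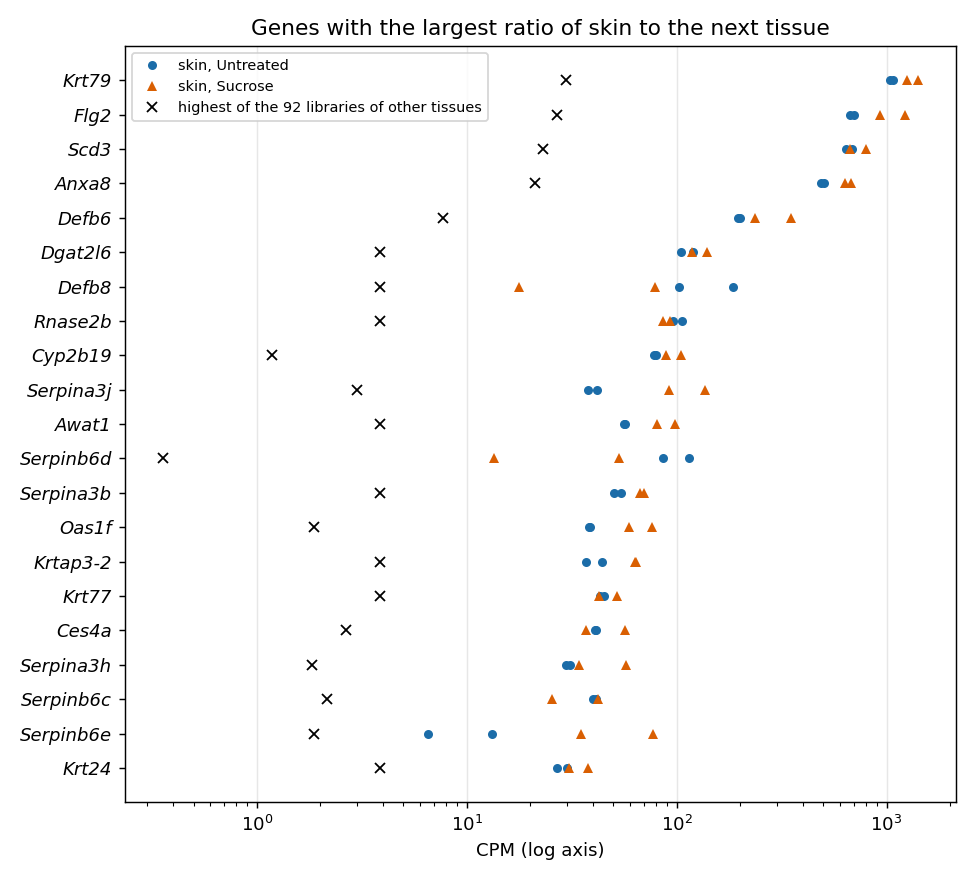
Level in CPM (log axis) of the 21 genes with the largest ratio of skin to the next tissue, in the 2 Untreated and 2 Sucrose skin libraries (points) and in the highest of the 92 libraries of other tissues (crosses). Each skin point of each gene lies to the right of its cross, and Defb8, Serpinb6d and Serpinb6e spread most between skin libraries.

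The stretches of DNA upstream of these genes are shown to let the promoters be compared. RefSeq start sites on GRCm38.p6 were matched by symbol for 27 of the 30 genes named by ratio or level. The motif TATANA, the core of a TATA box, was searched on the sense strand with its first base 45 to 15 bases before the start. It was present in 9 of the 27 (33.3%) and in 3.31% of the promoters of all genes tested that could be matched. Of the 208 genes highest in skin, 151 (72.6%) had a promoter in the table and 17 of these (11.3%) held the motif. Since fewer than 80% of the genes in that set and in the set of all genes tested (75.0%) were matched, no comparison is drawn between these shares. The 60 bases before the start, with the motif in capitals (in Krt77 overlapping matches run together), read 5′ to 3′ in the direction of the gene, were as follows.
Defb6 (chr8:19225418-19225477, plus strand): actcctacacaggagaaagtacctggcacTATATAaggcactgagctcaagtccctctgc
Defb8 (chr8:19447607-19447666, minus strand): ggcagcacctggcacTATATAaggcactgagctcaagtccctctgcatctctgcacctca
Flg2 (chr3:93197213-93197272, plus strand): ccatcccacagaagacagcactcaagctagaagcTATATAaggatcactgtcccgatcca
Lce1m (chr3:93019062-93019121, minus strand): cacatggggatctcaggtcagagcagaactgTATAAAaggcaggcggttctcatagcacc
Krt77 (chr15:101869706-101869765, minus strand): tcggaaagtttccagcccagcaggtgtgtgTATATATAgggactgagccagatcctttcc
Krt24 (chr11:99285263-99285322, minus strand): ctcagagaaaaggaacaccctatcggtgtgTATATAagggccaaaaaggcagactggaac
Krtap3-2 (chr11:99556854-99556913, minus strand): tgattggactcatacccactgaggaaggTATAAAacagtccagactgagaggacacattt
Serpina3b (chr12:104127936-104127995, plus strand): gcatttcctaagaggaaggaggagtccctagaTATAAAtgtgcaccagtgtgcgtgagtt
S100a4 (chr3:90603710-90603769, plus strand): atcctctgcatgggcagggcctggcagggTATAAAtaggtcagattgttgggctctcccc
The Defb6 and Defb8 windows share an unbroken run of 40 bases, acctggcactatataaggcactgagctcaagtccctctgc, which includes the motif. A match to these letters is a description of the sequence and was not tested as a binding site.

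The keratinocyte programme of the basal layer was higher in skin throughout most of its list. Of 12 basal genes tested, 11 were above the mean of the other tissues (27.7% of all genes were) and none was below it, with a median log2 difference of 4.15, against -0.09 for all genes tested. Of the 12, 7 were highest in skin (1.19% of all genes were). Krt15, a keratin of basal cells and of the follicle bulge, stood at 4221, 4156, 7776 and 8594 CPM and at 125.2 to 601.6 CPM in eye, the next tissue, a ratio of 14.5. Its partner Krt5 stood at 502.6, 447, 1091 and 1065 CPM, 5.44 times its mean in eye. Col17a1, a collagen that anchors basal cells, was 6.77 times its level in eye, and Trp63, the transcription factor that sets up stratified epithelium, stood at 42.2, 43.7, 55.4 and 55.0 CPM, 4.25 times its level in stomach. The integrin subunit genes did not behave alike: Itgb4 was highest in skin at 60.1 to 151.6 CPM, while Itga6, at 193 to 384.6 CPM, overlapped jejunum at 201.1 to 221.2 CPM, and Itga3 stood at 2.14 to 2.84 CPM in skin and at 10.6 to 21.1 CPM in lung.

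Genes of the suprabasal layers and of the cornified envelope separated skin from most tissues but less from stomach. Of 15 suprabasal genes tested, 14 were above the mean of the other tissues (median 8.28 on the log2 scale). Of 33 cornified envelope genes 27 were (median 7.78), with none of either list below. Among all genes tested, 27.7% were above that mean. With DESeq2, Krt77 and Dsg3 of the suprabasal list were not called against the mean. Nor were Tchhl1, Sprr1b, Lce1g, Lce1h, Lce1k, Lce3c and Lce3d of the envelope list, while Sprr3, not called in the main fit, was. Lce3d also lost its call with Sucrose libraries only and with 1 coefficient per tissue and treatment. Set against stomach alone, 11 suprabasal genes were higher in skin and 3 lower (median 0.996), and of the envelope genes 9 were higher and 18 lower (median -1.41), while 22.3% and 19.7% of all genes were higher and lower. Stomach was the next highest or highest other tissue for 29 of the 33 envelope genes. Lor, the major protein of the cornified envelope, stood at 855.9, 812.1, 1127 and 1399 CPM in skin and at 897.7 to 1120 CPM in stomach, ranges that overlap. Krt10 averaged 2.04 times its level in stomach, where it ranged from 2926 to 3616 CPM, but did not pass the test against every tissue (adjusted p = 0.0856). Krt1, the partner of Krt10, was lower in skin, at 37.7 to 75.1 CPM, than in stomach, at 157.9 to 226.8 CPM.

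Envelope genes of the same family did not all stand in the same relation to stomach. Of 13 Lce1 genes, 4 were higher in skin than in stomach, 6 were lower and 3 were not called, while all 6 Lce3 genes and all 3 Sprr genes tested were lower. Ivl, the envelope protein involucrin, stood at 168.3, 161.1, 184 and 185.9 CPM in skin and at 28.2 to 45.8 CPM in stomach. Lce1m, a late cornified envelope gene, stood at 1048, 878.4, 1444 and 1703 CPM in skin and at 100.1 to 137.2 CPM in stomach, 10.7 times lower. Both genes had all skin libraries above all stomach libraries. Lce3a stood at 202.7 to 239.6 CPM in stomach and at 0 to 0.167 CPM in skin, and Lce3f at 219.4 to 260.7 CPM in stomach and at 0.0654 to 0.715 CPM in skin. Lce3b had no count in the 4 skin libraries and 44.4 to 52.5 CPM in stomach. Sprr3, a small proline-rich envelope precursor, stood at 526.3 to 567.6 CPM in stomach and at 0 to 2.13 CPM in skin. Lce genes lie side by side on chromosome 3 and are similar in sequence, so the split of reads among them is uncertain.

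**Figure D3:**
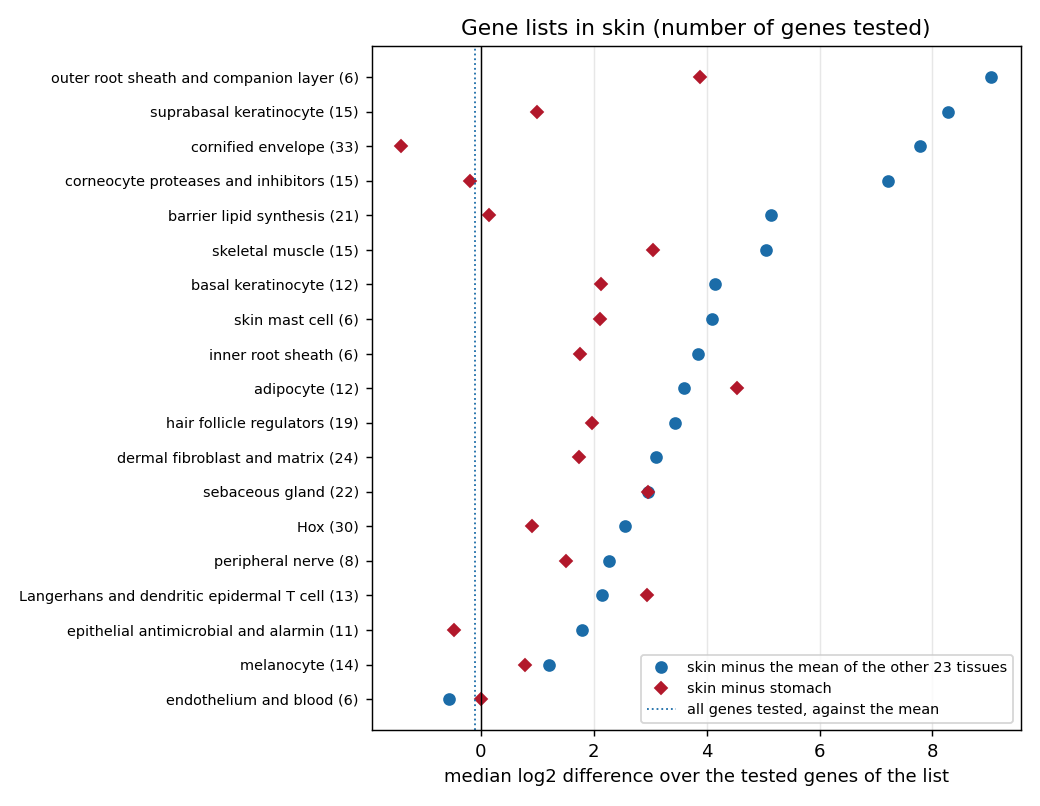
Median log2 difference (horizontal axis) over the tested genes of each list with at least 6 tested genes (vertical axis, number tested in brackets), for skin minus the mean of the other 23 tissues (circles) and skin minus stomach (diamonds). Cornified envelope genes have a median of 7.78 against the mean and -1.41 against stomach, and the dotted line marks the median of all genes, -0.09.

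The genes named for their level had all 4 skin libraries above all 92 others, a condition that Dcn and Col3a1, with means of 1771 and 1604 CPM, did not meet. Krt15 had the highest level of them. Sbsn, suprabasin, stood at 3571, 3578, 4834 and 5351 CPM, 5.38 times stomach, and Calm4, a calmodulin-like protein of differentiating keratinocytes, at 1350, 1311, 2165 and 2392 CPM, 5.94 times stomach. Perp, a desmosome-associated membrane protein, stood at 1189, 1114, 1768 and 1873 CPM, 3.44 times stomach. Dsp, desmoplakin, which links desmosomes to intermediate filaments, stood at 1127, 1321, 1505 and 1796 CPM, 2.05 times heart, a tissue that also depends on desmosomes. Sfn, a 14-3-3 protein of epithelia, was 1.81 times stomach. S100a4, a calcium-binding protein of mesenchymal and myeloid cells, was 2.01 times bone marrow. Gjb5, a connexin gene whose product forms channels between cells, was highest in skin at 73.2, 72.3, 105.9 and 121.5 CPM, against 6.88 to 12.9 CPM in stomach.

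Of 15 proteases and inhibitors of the cornified layer, 14 were above the mean of the other tissues, against 27.7% of all genes. With DESeq2, Klk5, Klk6, Klk13 and Casp14 were not called, nor was Klk13 with Untreated libraries only. Against stomach 5 of the 15 were higher and 5 lower, not far from the shares of all genes, 22.3% and 19.7%. Klk7, a kallikrein that cuts corneodesmosomes, stood at 822.9, 870.9, 1168 and 1378 CPM, 4.055 times stomach. Cst6, a cysteine protease inhibitor, stood at 1167, 1102, 1025 and 784.9 CPM, 9.80 times stomach. Spink5, the kallikrein inhibitor LEKTI, stood at 1378 to 1660 CPM in skin and at 1436 to 1689 CPM in stomach, which overlap. Casp14, the caspase of cornification, was lower in skin, at 13.1 to 33.4 CPM, than in stomach, at 43.4 to 74.7 CPM. Of 21 genes for barrier lipids, 20 were above the mean of the other tissues (median 5.14), and 2, Elovl4 and Cyp4f39, were highest in skin. Lipk was not called against the mean with DESeq2. Against stomach 6 of the 21 were higher and 5 lower. Elovl4, which elongates very long chain fatty acids for ceramides, stood at 874, 780.3, 1111 and 1450 CPM, 6.15 times eye. Ceramide genes outside that list were highest in skin as well, among them Cers5 at 671, 695.3, 821.3 and 807.1 CPM (4.94 times adrenal gland) and Acer1, an alkaline ceramidase, at 235 to 325.3 CPM (2.92 times colon). These 2 were picked after their values were seen.

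Follicle genes split between a present outer sheath and a nearly absent shaft. All 6 genes of the outer root sheath and companion layer were above the mean of the other tissues (median 9.04), where 27.7% of all genes were. Krt17, Krt75 and Krt79 were highest in skin, as were 1.19% of all genes. The call of Krt6b rested on Untreated 4, at 1.51 CPM, since the other 3 libraries had no count. Without that library its difference was -1.19. With DESeq2, Krt6b, Krt16 and Krt75 were not called against the mean. Krt17 stood at 326.9, 316.1, 400.7 and 387.5 CPM, 8.55 times thymus. Of 15 keratins of the hair shaft in the table, only Krt32, at 13.5, 14.1, 27 and 32.2 CPM, passed the filter on low counts. Of the rest, 4 had no count in any of the 4 libraries and 10 had between 1 and 15 counts each over the 4 libraries. Of 53 keratin-associated protein (Krtap) genes, the cysteine-rich matrix proteins of hair, 31 had no count and 1, Krtap3-2, was tested. Krtap3-2 stood at 44.0, 36.8, 63.2 and 64.3 CPM and had 1 count in pancreas (pooled ratio 86.85, interval 15.6 to 3433). Among regulators of the follicle, 16 of 19 tested were above the mean of the other tissues and 4 were highest in skin: Cd34, Grhl1, Hoxc13 and Hr. Hoxc13, a regulator of hair keratins, was at 4.97 to 7.15 CPM, and Shh, a growth-phase signal of the follicle, had a count in 1 of the 4 libraries. Of 22 sebaceous genes, 18 were above the mean, 1 (Fads2) below, and 6 highest in skin. The summed sebaceous list averaged 4749 CPM in skin, less than in aorta (25460), white adipose tissue (13900), liver (10840) and parotid gland (8996). Fads2 was not called with Sucrose libraries only or with 1 coefficient per tissue and treatment. Krt32, Krtap3-2, Hoxc13 and the sebaceous genes Awat1, Hsd3b6 and Ces4a were not called against the mean with DESeq2.

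Genes outside the fixed lists included the whole tested Skint family, butyrophilin-like genes known from keratinocytes and thymic epithelium. All 7 tested Skint genes were highest in skin, against 1.19% of all genes. Skint3 stood at 49.3, 57.9, 42.6 and 51.5 CPM, 5.58 times stomach, and Skint4 at 26.1, 28.1, 39.1 and 47.2 CPM, 10.7 times thymus. The 7 genes are neighbours on chromosome 4 (chr4:112072016-114245028) and similar in sequence, which limits how firmly reads can be assigned to each. Other groups of neighbours were a type I keratin stretch on chromosome 11 (chr11:98836785-100397763, 10 of 28 tested genes), a type II keratin stretch on chromosome 15 (6 of 35) and the epidermal differentiation complex on chromosome 3 (5 of 27). In all, 44 of the 204 genes with a position lay in groups of at least 4. Receptors of the interleukin 20 family were also among the 208: Il20rb stood at 169.3, 157, 242.3 and 240.9 CPM, 11.1 times brain, and Il20ra at 16.6 to 59.3 CPM, 8.70 times adrenal gland. Of transcription factors, Tfap2c stood at 126.1 to 243.8 CPM, 4.62 times eye. The genes of this paragraph were picked after their values were seen.

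The dermis and the tissues under it showed in the mean but seldom as highest in skin. Of all genes tested, 27.7% were above the mean of the other tissues and 1.19% were highest in skin. All 24 fibroblast and matrix genes were above that mean (median 3.11) and 3 were highest in skin: Col3a1, Dcn and Twist2. With Sucrose libraries only, Sfrp2 (-2.89), Pdgfra (-0.61) and Dpp4 (-0.57) turned negative on the log2 scale, and Sfrp2 did so (-0.54) with 1 coefficient per tissue and treatment. Sfrp2 stood at 9.74, 10.2, 0.710 and 0 CPM. Col3a1, a fibrillar collagen, stood at 2621, 2041, 1102 and 652.7 CPM in skin and at 649 to 938.5 CPM in skull. Dcn, the proteoglycan decorin, stood at 3097, 2463, 833.3 and 689.8 CPM against 776.3 to 1081 CPM in white adipose tissue, so its Sucrose libraries overlapped that tissue. Col1a1 was higher in skull, at 6682 to 11620 CPM, than in all 4 skin libraries, at 2157 to 6450 CPM. All 15 skeletal muscle genes were above the mean of the other tissues and none was highest in skin: Acta1, skeletal actin, stood at 4267, 4092, 1671 and 156.6 CPM in skin and at 74410 to 117100 CPM in skeletal muscle. Of 12 adipocyte genes, 11 were above the mean. With Sucrose libraries only, Lep, Plin1 and Car3 were not called. Pnpla2, not called in the main fit, was above the mean with Untreated libraries only (0.46) and below it with Sucrose libraries only (-0.67).

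Resident cells of other kinds gave lower levels. Of 13 genes of Langerhans cells and epidermal T cells, 12 were above the mean of the other tissues, where 27.7% of all genes were above and 19.5% below. Cd207, langerin, the defining gene of Langerhans cells, stood at 6.93, 5.19, 6.39 and 7.86 CPM in skin and at 1.99 to 3.21 CPM in liver. Of mast cell genes, Mcpt4 and Cma1, proteases of connective tissue mast cells, were highest in skin at 4.29 to 16.4 and 1.43 to 30.4 CPM, while Cpa3 stood at 12.1 to 18.9 CPM in bone marrow and at 2.15 to 24.9 CPM in skin. Of 14 melanocyte genes, 9 were above the mean and none was highest in skin. One of the 9, Trpm1, at 0 to 1.34 CPM, turned negative without Untreated 4 (-0.19) and with Sucrose libraries only (-1.31). Dct, a melanin enzyme, stood at 19.9 to 35.0 CPM in skin and at 640.6 to 798.4 CPM in eye, and Tyr at 2.13 to 4.44 CPM in skin. Of 8 peripheral nerve genes, 7 were above the mean and none below. Against the same shares, 3 of 6 endothelial and blood genes were below the mean and none above, and of 11 antimicrobial and alarmin genes 6 were above and 5 below. Of the last, S100a8 and S100a9 stood at 2.14 to 17.1 CPM in skin. Without Untreated 2, S100a8, S100a9, Camp and Lcn2 of those below and Defb4 of those above were not called. Nor was Emcn, of the endothelial genes. Slpi, also below, was not called with Untreated or with Sucrose libraries only.

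Hox genes encode transcription factors that mark position along the body. Of 39 in the table, 30 were tested and 25 were above the mean of the other tissues (median 2.55), where 27.7% of all genes were. None was below, and Hoxc13 alone was highest in skin. Hoxa10, at 0 to 1.004 CPM, turned negative with Sucrose libraries only (-1.52) and with 1 coefficient per tissue and treatment (-0.12). Hoxd4 stood at 83.8, 87.7, 49.0 and 45.8 CPM and Hoxc6 at 22.7, 28.1, 21.3 and 17.9 CPM. In the 4 libraries 9 Hox genes had no count, among them Hoxa11, Hoxa13, Hoxb13, Hoxc10 and Hoxd13, which are known from the rear of the body, and Hoxb1 and Hoxd1, known from its front.

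No gene was lowest in skin by edgeR with adjustment when the 2 treatments were joined. With Untreated libraries only 1 gene was, and with Sucrose libraries only 10 were. At an unadjusted p under 0.05 the joined fit gave 7 such genes, Atf2, Bpgm, Lyrm9, Mapk9, Mrps11, Nlk and Slc9a8. DESeq2 on the joined libraries gave none after adjustment and 5 before it. The genes given here are among the largest decreases of 2397 genes at 20 CPM or more in all 23 other tissues, a rule set after the values were seen that itself favours genes lower in skin, so they are a description. Others among those decreases were Etnk1, Zfhx3, Slc25a39, Slc25a37, Hmgb3, Msi2, Impa1 and Rfk. Bpgm, the enzyme of 2,3-bisphosphoglycerate synthesis, stood at 17.5, 16.1, 10.7 and 13.6 CPM in skin and at 20.04 CPM in the lowest other tissue, a log2 difference from the mean of -1.95 ± 0.18 (SE, adjusted p = 4.2e-16). Gpd2, mitochondrial glycerol-3-phosphate dehydrogenase, stood at 65.9, 66.8, 39.8 and 30.0 CPM (-1.78 ± 0.20). Isca1, an iron-sulfur cluster assembly factor, stood at 45.0, 36.7, 24.2 and 28.6 CPM (-1.35 ± 0.12). In each of these 3 genes the Sucrose libraries were lower than the Untreated ones.

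The joined treatments differed within skin. In a fit with 1 coefficient for each tissue and treatment, 632 genes (3.61%) were higher in Sucrose than in Untreated skin and 1461 (8.35%) were lower, 2 libraries against 2. These 2093 calls fell to 1246 without Untreated replicate 4, to 1077 without Sucrose replicate 1 and to 893 without Sucrose replicate 2. The lower genes included much of the tissue under the epidermis: 19 of 24 matrix genes, 10 of 12 adipocyte genes, 9 of 15 muscle genes and 4 of 6 mast cell genes. The summed matrix list stood at 25140, 22870, 7852 and 5818 CPM, the adipocyte list at 5292, 4967, 1540 and 918.6 CPM and the muscle list at 20860, 20900, 8620 and 795.6 CPM. The muscle sum was lowest in Sucrose 2. No muscle gene was called without Sucrose replicate 2, 4 were without Untreated replicate 4, 5 without Untreated replicate 2 and 11 without Sucrose replicate 1, and DESeq2 called 2. In each of these fits at least 15 of the 24 matrix genes were called. The summed basal list went the other way, at 6570, 6558, 11320 and 12590 CPM, with 4 of 12 genes higher, and the suprabasal list at 11890, 11130, 16970 and 19670 CPM with none of 15 called.

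**Figure D4:**
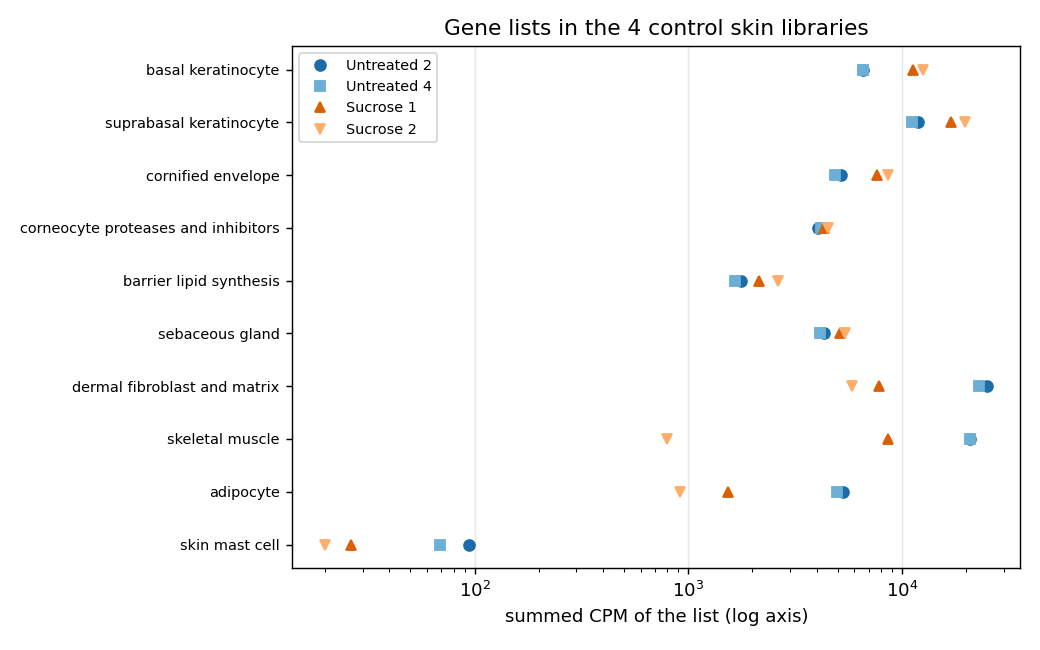
Summed CPM (log axis) of 10 gene lists in the 4 control skin libraries. Matrix, adipocyte, muscle and mast cell sums are lower in both Sucrose libraries than in both Untreated libraries, and the muscle sum of Sucrose 2, at 795.6 CPM, lies far below that of Sucrose 1.

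The largest single changes between the treatments differed in what carried them. Col14a1, a collagen of dermal fibrils, stood at 38.2, 34.3, 2.84 and 0.715 CPM (log2 difference -4.32 ± 0.48, SE, adjusted p = 1.2e-09), and both Sucrose libraries were below both Untreated ones. Retnla at 68.8, 54.2, 6.39 and 3.57 CPM, Cfd, the adipocyte protease adipsin, at 2630, 2398, 309.7 and 106.5 CPM, Ifi205 at 77.2, 73.8, 6.39 and 6.43 CPM and Txlnb at 18.9, 23.4, 3.55 and 0 CPM showed the same order. Upward, Smr3a and Bpifa2, secreted proteins of salivary gland, stood at 148.5 and 191.8 CPM in Sucrose 1 and at no more than 0.715 and 2.14 CPM in the other 3 skin libraries. Pomc, the pituitary prohormone, stood at 55.4 CPM in Sucrose 1 and at no more than 1.17 CPM elsewhere. These 3 calls thus rest on 1 library. Alb and Ahsg, liver plasma proteins, stood at 18.6 to 24.2 CPM in both Sucrose libraries and at 0.980 to 1.37 CPM in both Untreated libraries. Whether RNA of other tissues in these libraries has a part in the differences was not tested. Hox genes differed too: Hoxa7 stood at 9.28, 17.8, 97.3 and 57.9 CPM (2.60 ± 0.26, adjusted p = 1.3e-10) and Hoxc9 at 0.261, 1.004, 14.9 and 7.15 CPM, and of 30 tested Hox genes 5 were higher and 1 lower in Sucrose. The position on the body from which each piece of skin came is not in the labels, and its part in these differences was not tested.

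The difference between skin and the other tissues was itself unequal between the treatments for 1763 genes (10.1%), by the interaction term of the same fit. Perp was 1 of the 30 named genes among them, with a skin difference larger by 0.69 (log2) in Sucrose (adjusted p = 0.042).

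The CMCTween libraries were not used in the main comparison. Of the 208 genes, 184 were tested there and 176 stood above every other tissue, as did 503 of all 16203 genes tested (3.10%). By the full test, 55 genes (0.339%) were highest in skin, of which 49 were among the 208: 23.6% of the larger list and 89.1% of the smaller. The count was 81 without CMCTween replicate 3 and 170 without replicate 4. A further 6 genes were called in CMCTween mice and not in the controls, a difference that was not itself tested. Of these, Krt25, S100a3, Prr9 and Tchh belong to the hair follicle's inner layers or shaft, and the other 2 were Cldn1 and Fam25c. On a scaling within skin, CMCTween 3 stood at 5637, 1929 and 12530 CPM for Krt25, S100a3 and Tchh. CMCTween 4 stood at 34.3, 13.7 and 78.45 CPM, so most of their level came from 1 library. All named genes tested there, which leaves out Dgat2l6, Oas1f and Serpinb6e, had positive differences from each other tissue. Not called by the full test there were Rnase2b, Cyp2b19, Awat1, Serpina3b, Serpina3j, Krt77, Ces4a, Serpina3h, Serpinb6c, Krt24, Krtap3-2, Dsp and S100a4.

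CMCTween replicate 3 stood apart from the other 35 skin libraries in its hair genes. On a scaling within skin, the Krtap genes summed to 38150 CPM there, against 47.2 to 86.2 CPM in the 4 control libraries, and made up 3.785% of the library's counts. The hair shaft keratins summed to 14900 CPM (controls 19.2 to 43.1) and the inner root sheath genes to 28210 CPM (controls 269.6 to 665.4). Most of the control sum was Gata3, a transcription factor that other cells also express, at 236.7 to 628.6 CPM in the controls and 377.6 CPM in CMCTween 3. Krt71, a keratin of the sheath, was at 0 to 0.210 CPM in the controls and 3378 CPM in CMCTween 3. Of 53 Krtap genes 52 were at their highest of all 36 libraries in this one, as were 15 of 15 shaft keratins and 13 of 14 inner root sheath genes. Krt81, a shaft keratin with no count in the 4 controls, stood at 4127 CPM, against 26.7 CPM in CMCTween 4. Tchh, trichohyalin of the inner root sheath, stood at 12530 CPM there and at 6.13 to 11.3 CPM in the controls, and Hoxc13 at 255.4 CPM against 6.13 to 8.98 CPM. Melanocyte genes were also high, at 915.1 CPM in sum against 113.9 to 183.2 CPM, with Dct at 392.3 CPM. Basal and suprabasal keratinocyte sums were at their lowest of the 36 libraries there, at 4900 and 6141 CPM. Risedronate replicate 1 came next, with 1540 CPM of Krtap and 4215 CPM of inner root sheath genes, and then Teriparatide replicate 2, with 928.4 and 1132 CPM. The other library of each treatment was lower: Krtap genes summed to 286.4 CPM in CMCTween 4, 51.8 CPM in Risedronate 2 and 105.3 CPM in Teriparatide 1. Hair follicles cycle through growth and rest, and the stage in each mouse is not in the labels.

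**Figure D5:**
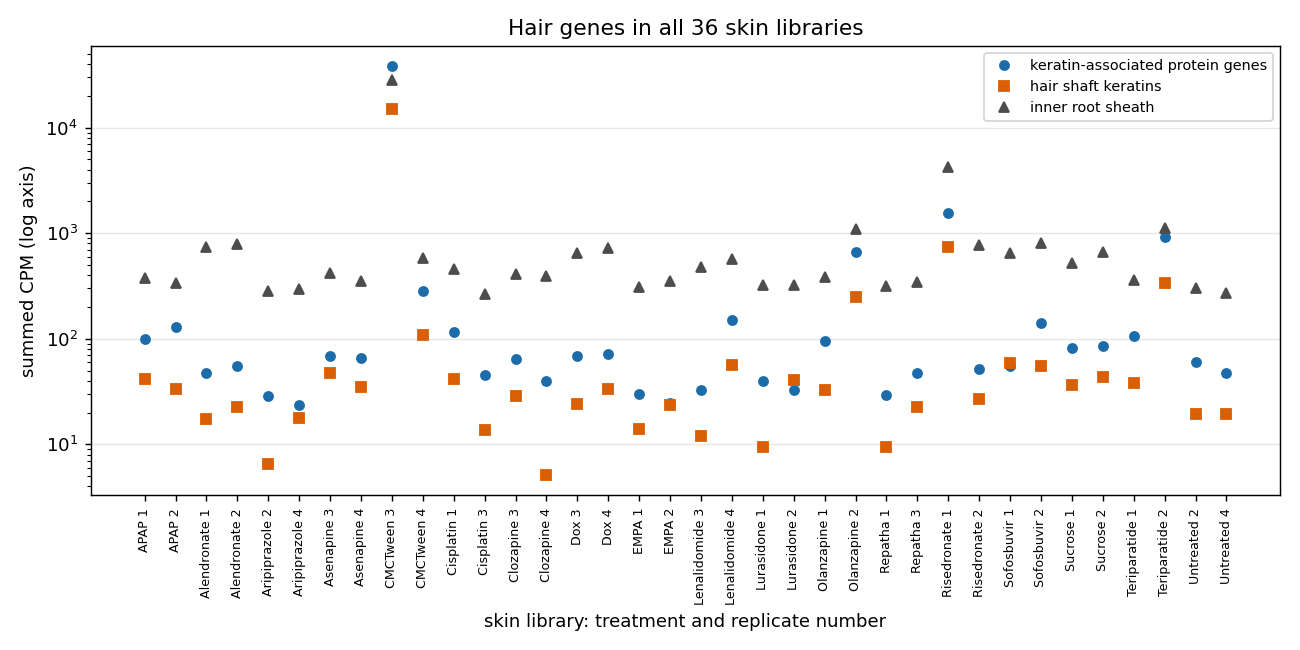
Summed CPM (log axis) of Krtap genes, hair shaft keratins and inner root sheath genes in each of the 36 skin libraries (horizontal axis, treatment and replicate number). CMCTween 3 has 38150, 14900 and 28210 CPM, and the 4 control libraries have at most 86.2, 43.1 and 665.4 CPM, the last mostly Gata3.

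Across all 36 skin libraries the tissue under the epidermis varied more than the epidermis itself. The basal list ranged from 4900 to 15810 CPM and the cornified envelope list from 4839 to 11760 CPM. The matrix list ranged from 4601 to 93840 CPM (20.4 times), the muscle list from 999.5 to 60570 CPM (60.6 times) and the adipocyte list from 400.2 to 6957 CPM (17.4 times). Sucrose replicate 2 held the lowest muscle sum of the 36 libraries.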

How the data were processed

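The authors deposited raw counts per gene symbol, 1 table per tissue, with 24421 symbols, and these were used as deposited. Per the submitters' processing notes, bcl2fastq 2.17, TopHat2 2.1.1, HTSeq 0.9.1 and mm10 were used, and the labels name a 3′ mRNA library kit. The annotation, strand setting and treatment of shared reads are not given in the sources used here. No column lacked a sample.

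In R 4.3.3 with edgeR 4.0.16, the 96 Untreated and Sucrose libraries were fitted with tissue and treatment terms (71 residual degrees of freedom), TMM scaling and filterByExpr at a minimum count of 10, and tested with the quasi-likelihood F test. A gene was highest in skin when all 23 differences were above 0 and the largest p, adjusted over all genes, was under 0.05. The treatment comparison used 48 groups (48 residual degrees of freedom). In ratios of mean CPM a tissue with under 3 counts took the level of 3 counts. Pooled ratios used the summed counts themselves. Positions are from GENCODE M21 (mm10) and promoters from RefSeq (GRCm38.p6).

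Named genes were, among those highest in skin at 20 CPM or more with all 4 libraries above all 92 others, the 20 with the largest ratio to the next tissue (Krtap genes apart, up to 3) and the 10 with the highest level, without predicted symbols, plus the 5 largest treatment differences each way. Alternatives were RLE and upper quartile scaling, no filter, other designs, DESeq2, and leaving out libraries or tissues. The steps were tested on simulated data. The members, lists and rules were chosen with earlier results of these data known. No library pair within a group agreed within sampling noise (lowest chi-square per gene 1.12, median 3.54). CPM of skin compared over 36 libraries use a scaling within skin.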

Additional observations from a re-analysis of the deposited data

Results flagged for a closer look

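In CMCTween replicate 3 of skin, a library outside the main comparison, hair genes exceeded the range of the control skin libraries: the Krtap sum was 38150 CPM, the hair shaft keratin sum 14900 CPM and the inner root sheath sum 28210 CPM. Risedronate replicate 1 held 1540 CPM of Krtap genes and 741.1 CPM of hair shaft keratins, and Teriparatide replicate 2 held 928.4 CPM of Krtap genes. Among 30 named genes checked for a skin library far from the other 3, Serpina3h was set apart by Sucrose replicate 2 at 57.2 CPM and Serpinb6c by Sucrose replicate 1 at 25.6 CPM. Chance alone sets apart about 1 in 20 such groups of 4. Of 21 lists checked the same way, none was set apart. The skin difference of Perp was 0.69 (log2) larger in Sucrose than in Untreated libraries by the interaction term.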

How the results depend on the processing

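The number of genes highest in skin, 208, stayed within 1.5 times under scaling, filter, design and leave-one-out alternatives (190 to 229 with all 4 libraries, 191 to 224 without 1 skin replicate, 152 with Untreated and 209 with Sucrose libraries only). It was 131 with DESeq2 and 343 without stomach, eye and thyroid gland. With a p of 1 for genes not above every tissue, chosen after seeing the data, it was 198. The genes themselves changed more than their number. Of the 208, 138 were also called with Untreated libraries only, 159 with Sucrose libraries only and 121 with DESeq2. With other scaling, filter or model terms on all 4 libraries, at least 187 of them were. Genes lowest in skin numbered 1 with Untreated and 10 with Sucrose libraries only. Leaving out 1 skin replicate gave 893 to 1550 treatment calls and, in CMCTween mice, 81 to 170 genes highest in skin. With the replicate block the counts were 8156, 190 and 0 for the mean, highest and lowest comparisons. The numbers were not taken to pair libraries: over 23 tissues the Sucrose deviations correlated with skin at a median of 0.058 (-0.18 to 0.24), and over 17 the Untreated ones at -0.031 (-0.13 to 0.23).

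Of 3872 gene values against the mean, 3761 kept direction and side, 72 fell below the threshold and 28 passed it. DESeq2 gave 26 of the 72 and 1 of the 28. Of 390 values of the 30 named genes against the nearest tissue, 21 lost the call, 17 with DESeq2 and 4 with Untreated libraries only. Reversed were Trpm1 (-0.27), Sfrp2 (-0.54) and Hoxa10 (-0.12) with 1 coefficient per tissue and treatment, Krt6b (-0.99), Trpm1 (-1.31), Pdgfra (-0.61), Sfrp2 (-2.89), Dpp4 (-0.57) and Hoxa10 (-1.52) with Sucrose libraries only, and, over the fits without 1 skin replicate, Krt6b (-1.19 to 3.26) and Trpm1 (-0.19 to 2.02), whose lowest values were without Untreated replicate 4. The cause was not tested. Only genes called in the main fit could count as reversed, which leaves out Pnpla2 (0.46 with Untreated and -0.67 with Sucrose libraries only). Scaling moved the median of all genes from -0.09 to -0.06 (upper quartile) and -0.01 (RLE), and it was -0.15 with DESeq2, which also changes the test and the filter. The Sucrose skin libraries held 1117747 and 1118071 counts, and how far depth limits the precision for genes of low level was not tested.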

Other observations

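Nkx2-1, a transcription factor known from thyroid and lung, was among the 208 genes highest in skin, a gene singled out here after its values were seen. It stood at 191.3, 164.1, 274.2 and 349.6 CPM in skin, at 101.6 to 149.4 CPM in thyroid gland, at 72.7 to 138.1 CPM in liver and at 84.5 to 138.4 CPM in lung. The thyroid genes Pax8 and Foxe1 had no count in the 4 skin libraries, and Tg stood at 0 to 1.43 CPM there. In the 32 skin libraries of other treatments Nkx2-1 ranged from 16.5 to 456.4 CPM with a median of 44.2 CPM, and on that scaling the controls stood at 205.4 to 439.1 CPM. Without strand information, reads of a gene and of an overlapping transcript cannot be told apart.

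The lung genes Sftpc and Scgb1a1 stood at 24.3 and 27.8 CPM in Untreated replicate 4 and at 20.7 and 29.3 CPM in Sucrose replicate 2 of skin. In Untreated replicate 2 and Sucrose replicate 1 they were at no more than 0.71 and 3.855 CPM. Sftpb, another surfactant gene, was at 0 to 1.004 CPM in all 4.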
